A study of Rattus norvegicus with 31 samples.

Results

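A set of 10 genes of the extracellular matrix and of fibrosis was followed in rat kidney cortex and colon: the collagen genes Col1a1, Col1a2, Col3a1, Col4a1 and Col4a2, the glycoprotein and matricellular genes Fn1, Sparc, Dpt and Thbs1, and the growth factor gene Bmp7. They were taken by gene symbol from a table of 20207 genes, which gave 9 of the 10 genes. Col1a2 was not analysed here. The animals formed 3 groups: normal controls (NC), a high-salt model (HS), and high salt given together with calcitriol, the hormone form of vitamin D (CAL), so HS and CAL share the high salt and differ in the calcitriol. There were 5 cortex libraries from NC, 4 from HS and 6 from CAL, and 5, 5 and 6 in the same order from colon. Strain, sex, age, calcitriol dose and length of treatment are not given in the sources used here, nor is it stated which cortex and colon samples came from the same rat. The study's title places the experiment in salt-induced hypertension and gut-kidney communication.

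The extracellular matrix is the protein scaffold that cells secrete around themselves. Type IV collagen, whose most widespread chains are encoded by Col4a1 and Col4a2, forms the network of basement membranes beneath epithelia, around capillaries and in the glomerular filter. Type I and type III collagens form the fibrils of the interstitium, where fibroblasts are their main source, and their build-up marks fibrosis in the kidney and the gut. Fibronectin, SPARC, dermatopontin and thrombospondin-1 bind collagens and regulate fibril assembly or the activation of TGF-beta, while BMP-7, made by distal nephron epithelium, is known to oppose TGF-beta signalling in the kidney.

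The upstream sequences of Col4a2 and Dpt are shown because these were the 2 genes that passed the test under high salt. Col4a1 and Col4a2 lie head to head on opposite strands of rat chromosome 16, with annotated start sites 77 bases apart, so a single stretch of 76 bases lies upstream of both. It is given below 5′ to 3′ on the plus strand from RefSeq (build GRCr8, chr16:84885521-84885596), with a match to the GC box GGGCGG on the other strand in capitals. The second stretch is the 250 bases before the Dpt start site (build GRCr8, chr13:79656091-79656340, plus strand), with a TATAAA match that begins 29 bases before the start in capitals.
Col4a2 and Col4a1 shared start region: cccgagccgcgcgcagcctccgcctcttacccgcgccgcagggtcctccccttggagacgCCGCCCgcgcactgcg
Dpt upstream region: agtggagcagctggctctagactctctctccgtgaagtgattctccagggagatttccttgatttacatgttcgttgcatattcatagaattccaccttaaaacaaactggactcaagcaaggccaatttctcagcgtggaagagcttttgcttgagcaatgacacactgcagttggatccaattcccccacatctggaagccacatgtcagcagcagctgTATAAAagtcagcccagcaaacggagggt
The shared type IV collagen stretch was 78.9% G and C. Of the 10 genes, 6 had an entry in the RefSeq promoter table, which covers 250 bases before to 50 bases after each start (Col1a2, Col4a1, Col4a2, Sparc, Dpt and Thbs1). A TATAAA match on either strand was in 2 of those 6 (Col1a2 and Dpt), beside 14.2% of all 33469 promoters. CCAAT was in 5 of 6 (all but Sparc), beside 37.5%, and GGGCGG in 3 of 6 (Col4a1, Col4a2 and Thbs1), beside 33.1%. The Col4a1 and Col4a2 windows overlap and both hold the GC box shown above, so these 2 are not separate entries in the counts. The GC box was the only match to these 3 motifs in the shared type IV collagen stretch, it overlapped no other motif, and each match is one of letters only.

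The values were whole-number read counts per gene. Library totals spanned 289529 to 2265164 counts in cortex and 267976 to 918820 in colon, so several of these genes rest on few reads. Levels are given as CPM, the usual counts scaled to library size, with TMM factors, and differences as log2 fold changes with their standard error (SE). A gene passed the test at a Benjamini-Hochberg adjusted p under 0.05 over all genes tested. Both tissues matched their labels by markers: 7 colon epithelium markers summed to 14475 to 21117 CPM in NC colon and 73.8 to 96.6 CPM in NC cortex. The 6 proximal tubule markers summed to 6232 to 8472 CPM in NC cortex and to at most 40.9 CPM in NC colon. The low-count filter left 7524 genes in the cortex, among them 8 of these genes (not Col1a1), and 7217 in the colon, among them 7 (not Col4a2 or Bmp7).

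High salt in the kidney cortex was accompanied by less Col4a2 and more Dpt. Between HS and NC, 2 of the 8 tested genes passed, 1 in each direction, where 11.0% of all 7524 genes passed (831 genes). Col4a2, the basement membrane collagen chain, fell to 0.326 of its NC level. Dpt, which encodes dermatopontin, a small fibroblast-made protein that binds decorin and collagen fibrils, rose 1.74-fold. The members fell into no single direction: 4 tested genes had lower fitted levels in HS (Col4a2, Col4a1, Thbs1, Bmp7) and 4 had higher or nearly equal ones (Dpt, Col3a1, Fn1, Sparc), and 5 of 8 had an unadjusted p under 0.05, as did 2055 of all 7524 genes.

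**Figure D1:**
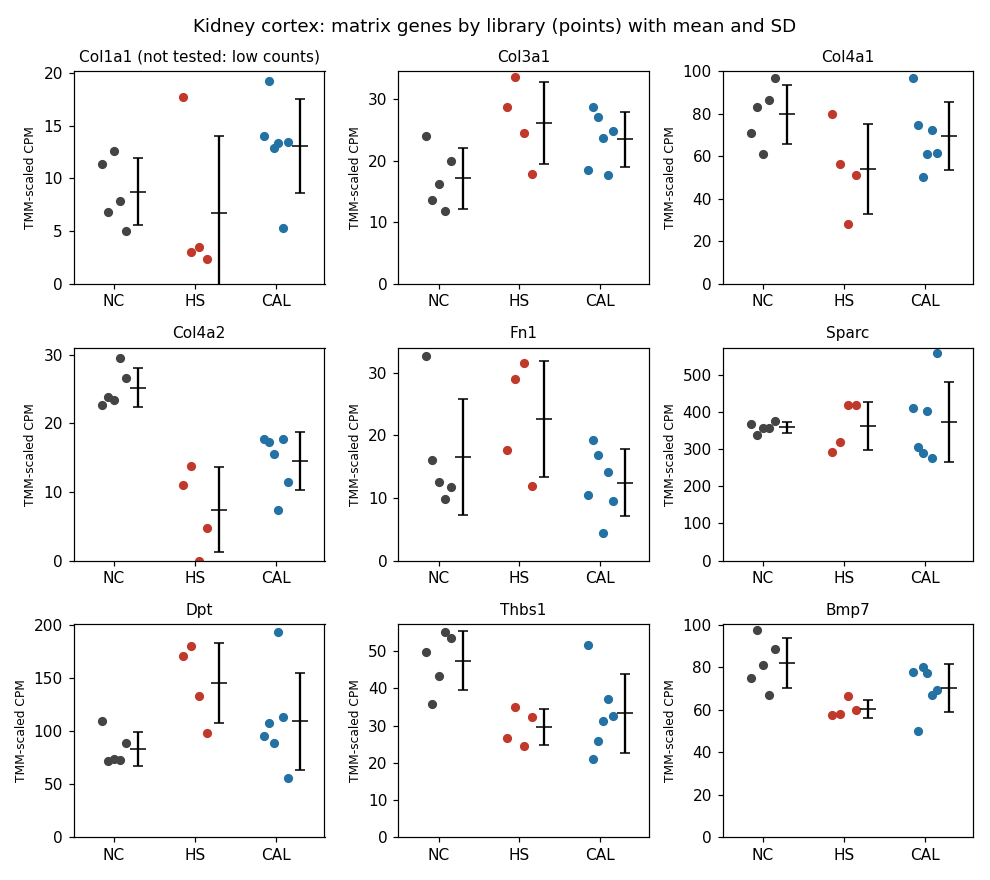
Levels of the 9 listed matrix genes in kidney cortex, in TMM-scaled CPM (y axes start at 0) by group (x axes). Each point is a library, and the bar beside each group is the mean with its SD, cut at 0 where it would run below. Col4a2 lies at 22.7 to 29.6 CPM in NC and at 0 to 13.7 CPM in HS.

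Of the basement membrane collagens, Col4a2 measured 22.7, 23.8, 23.4, 29.6 and 26.7 CPM in the 5 NC libraries and 11.1, 13.7, 0 and 4.77 CPM in the 4 HS libraries, from 88 and 18 reads in all. All 4 HS libraries lay below all 5 NC libraries, and the log2 fold change was −1.62 (SE 0.39, adjusted p = 0.0123). The HS library at 0 had the lowest depth, and a count of 0 there allows up to 10.5 CPM (3 counts), which covers counting error only. The low-count filter needed 4 libraries at or above 15.8 CPM. Col4a2 met it only through NC (5 of 5 libraries), the group where it was highest. The libraries of CAL (3 of 6) and HS (0 of 4) together fell short. Without HS replicate 4 the adjusted p of Col4a2 was 0.0602 (log2 fold change −1.34).

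Its partner Col4a1, transcribed from the other side of the same start region, measured 70.9, 83.3, 61.2, 86.7 and 96.7 CPM in NC and 79.8, 56.5, 28.0 and 51.3 CPM in HS. Of the 4 HS libraries, 3 were below every NC library, and HS replicate 1 was inside the NC range. The difference did not pass (log2 fold change −0.53, SE 0.23, adjusted p = 0.130).

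Among the interstitial collagens, Col3a1, the fibril collagen of soft tissue, measured 24.1, 13.6, 16.2, 11.8 and 20.01 CPM in NC and 28.8, 33.6, 24.5 and 17.9 CPM in HS. Of the 4 HS libraries, 3 were above every NC library, and the difference did not pass (0.60, SE 0.29, adjusted p = 0.188). Col1a1, the main chain of type I collagen, was too low to be tested, with 30 reads over the 5 NC libraries and 13 over the 4 HS libraries. It measured 11.3, 6.80, 12.6, 7.88 and 5.004 CPM in NC, and 17.7, 3.05, 3.51 and 2.39 CPM in HS. Fitted without a low-count filter, Col1a1 had a log2 fold change of −0.50 (adjusted p = 0.663).

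Of the glycoprotein and matricellular genes, Dpt measured 109, 72.2, 73.8, 72.9 and 88.4 CPM in NC and 171, 180, 133 and 97.9 CPM in HS. In Dpt, 3 HS libraries exceeded every NC library, and HS replicate 4 lay inside the NC range. The log2 fold change was 0.80 (SE 0.24, adjusted p = 0.0364). This call was lost when any of NC replicates 2 to 5 or HS replicates 1 and 2 was left out, with adjusted p between 0.0543 and 0.152, and with robust empirical Bayes variance shrinkage (0.0637).

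Thbs1, which encodes thrombospondin-1, an activator of latent TGF-beta that platelets also store, measured 49.6, 35.7, 43.2, 55.2 and 53.4 CPM in NC and 26.6, 35.1, 24.5 and 32.2 CPM in HS. The groups did not overlap, but the difference did not pass (−0.61, SE 0.25, adjusted p = 0.122). Fn1, for fibronectin, ran from 9.86 to 32.6 CPM in NC and from 11.9 to 31.6 CPM in HS and did not pass (0.32, SE 0.39, adjusted p = 0.626). Sparc, a gene for a collagen-binding glycoprotein, was 358 ± 14.6 CPM in NC (SD, n = 5) and 362 ± 65.4 CPM in HS (SD, n = 4). Its log2 fold change was 0.01, with a normal 95% interval from −0.32 to 0.34.

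Bmp7 measured 75.1, 97.7, 81.0, 67.0 and 88.4 CPM in NC and 57.6, 58.0, 66.6 and 59.7 CPM in HS. Every HS library was below every NC library by a narrow margin, and the difference did not pass (−0.47, SE 0.17, adjusted p = 0.0809). In all, 3 of the 8 tested genes had HS libraries that did not overlap NC (Col4a2, Thbs1 and Bmp7, each lower in HS), where 13.1% of all tested genes had groups that did not overlap.

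**Figure D2:**
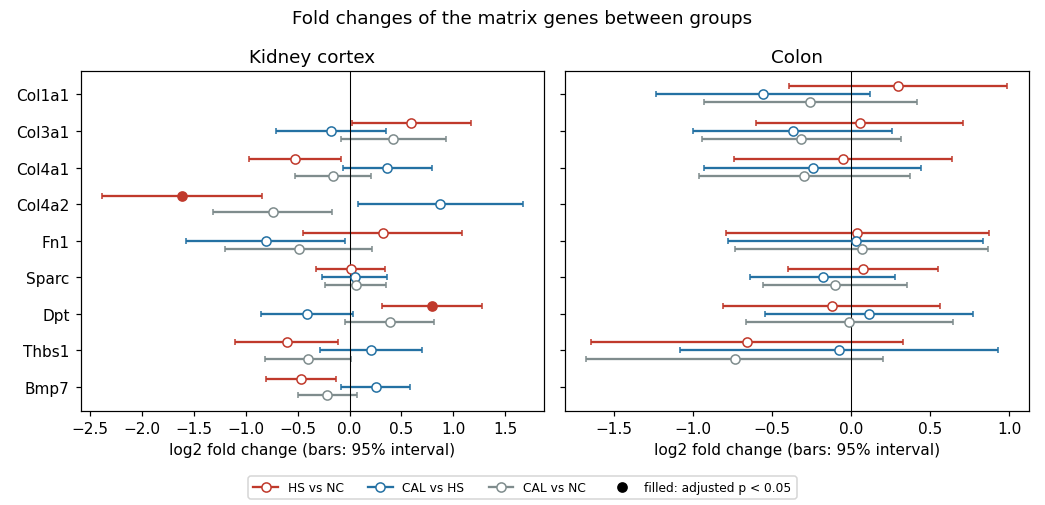
Log2 fold changes (x axis) of the matrix genes for the 3 comparisons in kidney cortex (left) and colon (right), as points with normal 95% intervals as bars. Filled points passed an adjusted p of 0.05: Col4a2 and Dpt, HS against NC in the cortex; genes with no point were not tested in that tissue.

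Markers of other cell types were set beside these values. In the cortex, 7 fibroblast markers (Dpt left out) summed to 237 to 292 CPM in NC and 182 to 257 CPM in HS. The 7 endothelial markers summed to 273 to 350 CPM in NC and 268 to 314 CPM in HS, and 6 podocyte markers to 500 to 858 CPM and 468 to 875 CPM. Of the fibroblast list with Dpt, 4 markers were tested, with a median log2 fold change of 0.19. Among them Dpt passed with a higher level in HS and Gsn with a lower one (−0.54, adjusted p = 0.0367). Of 6 tested endothelial markers, with a median of −0.09, only Tie1 passed, lower in HS (−0.89, adjusted p = 0.0249). Over all genes, 11.0% passed. Of the 8 platelet and erythrocyte markers, 6 were tested and 5 passed, all lower in HS, and their summed level was 3907 to 20190 CPM in NC, 1007 to 1862 CPM in HS and 3521 to 6952 CPM in CAL. The part of blood cell content in the Col4a2 and Thbs1 values was not tested. In such bulk samples, fewer cells of a type and less RNA per cell cannot be told apart.

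Calcitriol given with high salt was compared with high salt alone, the comparison the study's title points to. No matrix gene passed between CAL and HS in the cortex (0 of 8 by edgeR and 0 by DESeq2, 2 at an unadjusted p under 0.05). Of all 7524 genes, 0.758% passed by edgeR (57 genes) and 90 genes by DESeq2, and 1219 had an unadjusted p under 0.05 by edgeR. The 2 matrix genes at an unadjusted p under 0.05 were Col4a2 and Fn1. Col4a2 was 7.43, 16.4 and 17.7 CPM in CAL (lowest, median and highest of 6), and the log2 fold change against HS was 0.87 (SE 0.40, adjusted p = 0.286). Of the 6 CAL libraries, 4 were above every HS library. Fn1 was 4.46, 12.3 and 19.2 CPM in CAL (lowest, median and highest), and its log2 fold change against HS was −0.81 (SE 0.39, adjusted p = 0.306). All 6 CAL libraries lay below the HS mean of Fn1, and 3 lay below every HS library.

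The other tested genes of the cortex had smaller fitted differences between CAL and HS. Dpt was 55.6, 101 and 193 CPM in CAL (lowest, median and highest), −0.41 against HS (SE 0.23, adjusted p = 0.387), and 5 of 6 libraries were below the HS mean. Col4a1 was 0.36 against HS (SE 0.22, adjusted p = 0.433) and Bmp7 0.25 (SE 0.17, adjusted p = 0.501), with 5 of 6 CAL libraries above the HS mean for each. Thbs1 was 0.21 (adjusted p = 0.729), Col3a1 −0.18 (adjusted p = 0.796) and Sparc 0.05 (adjusted p = 0.922). The untested Col1a1 was 5.30, 13.4 and 19.2 CPM in CAL (lowest, median and highest), and fitted without a filter its log2 fold change was 1.11 (adjusted p = 0.372). No CAL group was separate from HS for any tested matrix gene, where 4.17% of all tested genes had groups that did not overlap.

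Between CAL and NC, 0 of 8 matrix genes passed by edgeR and 0 by DESeq2, where 0% of all genes passed by edgeR and 14 genes by DESeq2; 892 genes had an unadjusted p under 0.05. The 1 matrix gene among them was Col4a2 (−0.74, SE 0.29, adjusted p = 0.321). All 6 CAL libraries of Col4a2 lay below all 5 NC libraries, which held for 1 of the 8 genes and for 1.06% of all tested genes in either direction. The HS and CAL values share the same HS libraries, and the NC and HS values the same NC libraries, so the sizes of these comparisons are not independent. Col4a2 thus stood at 25.2 ± 2.87 CPM in NC (n = 5), 7.40 ± 6.20 CPM in HS (n = 4) and 14.5 ± 4.19 CPM in CAL (n = 6), each as mean and SD.

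**Figure D3:**
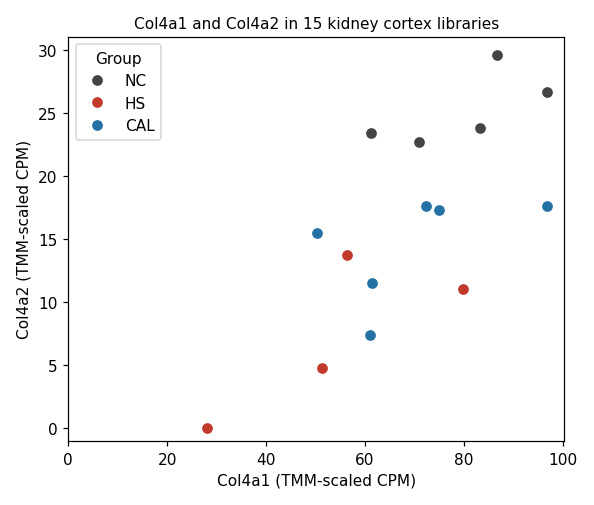
Col4a2 (y axis) against Col4a1 (x axis) in the 15 kidney cortex libraries, both in TMM-scaled CPM, coloured by group. The 5 NC libraries lie above all 10 others on the Col4a2 axis, while the groups overlap on the Col4a1 axis.

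In the colon no matrix gene differed between groups at the threshold. Between HS and NC 0 of 7 passed by edgeR and by DESeq2, none at an unadjusted p under 0.05, where 0% of 7217 genes passed by edgeR, 7 by DESeq2, and 614 had an unadjusted p under 0.05. Between CAL and HS 0 of 7 passed by either tool, none at an unadjusted p under 0.05, where 0.0139% of all genes passed by edgeR (1 gene) and 10 genes by DESeq2, and 758 had an unadjusted p under 0.05. Between CAL and NC 0 of 7 passed by either tool, none at an unadjusted p under 0.05, where 0% of all genes passed by both tools and 278 had an unadjusted p under 0.05.

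**Figure D4:**
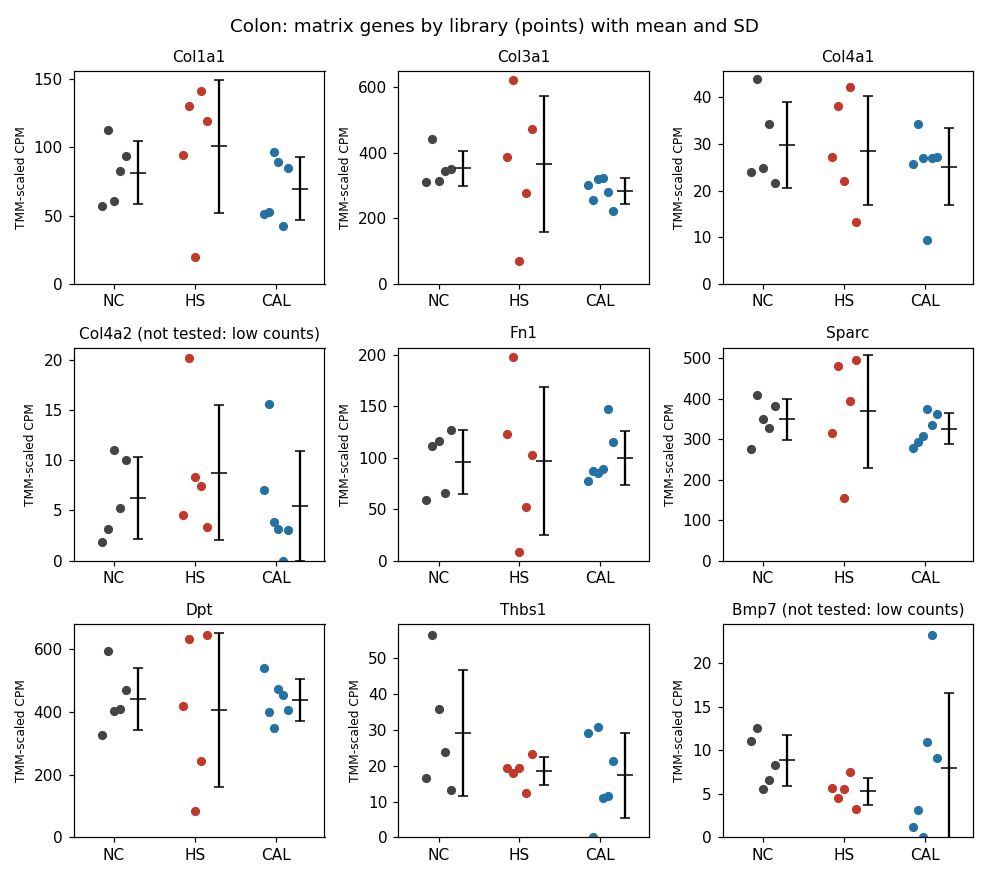
Levels of the 9 listed matrix genes in colon, in TMM-scaled CPM (y axes start at 0) by group (x axes), drawn as points for libraries with mean and SD, cut at 0 where it would run below. HS replicate 3 is the lowest library for Col1a1, Col3a1, Fn1, Sparc and Dpt, at 19.4, 69.1, 8.29, 155 and 82.9 CPM.

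Among the colon libraries, HS replicate 3 had the lowest levels of 5 matrix genes, and HS replicate 4 was next to it for 2 of them. Col3a1 measured 310, 442, 314, 342 and 351 CPM in NC and 386, 622, 69.1, 278 and 470 CPM in HS. Col1a1 measured 57.2, 113, 60.7, 82.9 and 93.5 CPM in NC and 94.2, 130, 19.4, 142 and 119 CPM in HS. HS replicate 3 was the lowest of the 16 colon libraries for both collagens, while 3 of the 5 HS libraries exceeded every NC library for Col1a1.

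Dpt followed with 327, 594, 403, 409 and 469 CPM in NC and 419, 633, 82.9, 243 and 646 CPM in HS. Fn1 measured 59.0, 112, 116, 65.8 and 127 CPM in NC and 123, 197, 8.29, 52.1 and 103 CPM in HS. In both, HS replicates 3 and 4 were the lowest 2 libraries of the colon. The 7 fibroblast markers without Dpt summed to 398 CPM in HS replicate 3, 1462 CPM in HS replicate 4 and 1022 to 1870 CPM in NC. The 7 macrophage markers summed to 13953 CPM in HS replicate 3 and 13443 CPM in HS replicate 4, beside 1243 to 4862 CPM in the other 3 HS libraries, 1606 to 4918 CPM in NC and 1496 to 3206 CPM in CAL. Most of that sum was Cd74, the MHC class II invariant chain gene (12974 and 12584 CPM), and 0 of 6 tested macrophage markers passed between HS and NC. The 8 smooth muscle and myofibroblast markers spanned 1967 to 24889 CPM in HS, 2725 to 16034 CPM in NC and 3316 to 6419 CPM in CAL, and were low in HS replicates 3 and 4 (2950 and 3451 CPM) as well as in HS replicate 1. The 6 proximal tubule markers summed to 171 CPM in HS replicate 3 and to at most 40.9 CPM in each other colon library. None of the markers in these 4 lists was at 0 throughout the colon. The part of cell type content in the matrix gene levels was not tested.

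The fitted HS to NC log2 fold changes in colon were 0.30 for Col1a1 (SE 0.35, adjusted p = 0.877), 0.05 for Col3a1 (adjusted p = 0.986), 0.04 for Fn1 (adjusted p = 0.991) and −0.12 for Dpt (adjusted p = 0.963). Without HS replicate 3 they became 0.55, 0.32, 0.33 and 0.14, and without HS replicates 3 and 4 they were 0.46, 0.48, 0.57 and 0.36; none passed. Sparc was 0.08 (adjusted p = 0.966) and Col4a1 −0.05 (adjusted p = 0.987). Thbs1, at 5 to 36 reads per library in NC and HS, had the largest fitted difference, −0.66 (SE 0.50, adjusted p = 0.761).

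In colon with calcitriol, Col3a1 was 221, 289 and 322 CPM in CAL (lowest, median and highest of 6), −0.37 against HS (SE 0.32, adjusted p = 0.725) and −0.31 against NC (SE 0.32), neither of which passed. Col1a1 was 42.6, 68.8 and 96.5 CPM, −0.56 against HS (SE 0.34, adjusted p = 0.599). Without HS replicate 3 these 2 differences from HS were −0.63 and −0.81 (adjusted p = 0.495 for both). Sparc was 279, 323 and 374 CPM in CAL, −0.18 against HS (adjusted p = 0.831), and Col4a1 was −0.24 (adjusted p = 0.853). Dpt and Fn1 differed from HS by 0.11 and 0.03, and without HS replicate 3 by −0.15 and −0.26, none of which passed.

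Col4a2 and Bmp7 were too low in colon to be tested, with 1 to 9 and 1 to 8 reads per library in NC and HS. Col4a2 averaged 6.26 ± 4.10 CPM in NC (n = 5) and 8.76 ± 6.71 CPM in HS (n = 5), and Bmp7 8.82 ± 2.97 and 5.29 ± 1.53 CPM (SD). Fitted without a filter, their HS to NC log2 fold changes were 0.49 (adjusted p = 0.875) and −0.72 (adjusted p = 0.730). The normal 95% interval of the Col4a2 value in colon ran from −0.92 to 1.90, and it rests on 17 reads over the 5 NC colon libraries. At its lower end it overlapped the interval of the filtered cortex fit, −2.39 to −0.84. Such overlap does not test a difference, and the direct test between the tissues is given next.

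Whether high salt acted differently on the 2 tissues was tested directly over the 5992 genes counted in both, 6 of them matrix genes. No matrix gene passed for HS against NC (0 of 6 by edgeR and by voom, none at an unadjusted p under 0.05), where 0.250% of all genes passed (15 genes; 932 at an unadjusted p under 0.05). Of these 6, the largest difference was that of Dpt, −0.90 in colon relative to cortex (SE 0.45, adjusted p = 0.328). Col4a2, outside these 6 because of its low colon counts, had a larger one: 2.11 with no low-count filter (SE 0.79, unadjusted p = 0.0101, adjusted p = 0.376). With the filter applied to all 31 libraries together, an alternative chosen after seeing the data, it was 2.18 (SE 0.80, unadjusted p = 0.00961, adjusted p = 0.228), where 0.0219% of 9128 genes passed and 1226 had an unadjusted p under 0.05. None passed for CAL against HS (0 of 6 by edgeR and by voom, none at an unadjusted p under 0.05), where 0% of all genes passed by edgeR and by voom and 644 had an unadjusted p under 0.05. In the same 2 fits Col1a1 was −1.64 (unadjusted p = 0.00825, adjusted p = 0.481) and −1.66 (unadjusted p = 0.0133, adjusted p = 0.400). The Dpt call in the cortex and its absence in colon therefore were not shown to differ. Col4a2 lay below the filter in colon, so it had no colon call to compare, and its tissue difference did not pass.

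The baseline levels of the matrix genes did differ between the tissues. In NC animals 5 of 6 tested genes passed between colon and cortex, 3 higher in colon and 2 lower, where 52.5% of all genes passed. Genes of the fibroblast interstitium were higher in colon: Col3a1 18.8-fold (log2 4.23, SE 0.33, adjusted p = 1.96e-13), Fn1 5.11-fold (2.35, SE 0.42, adjusted p = 1.15e-05) and Dpt 4.87-fold (2.28, SE 0.32, adjusted p = 1.85e-07). Col4a1 was lower in colon, at 0.351 of the cortex level (−1.51, SE 0.27, adjusted p = 1.14e-05).

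Thbs1 was lower in colon by a smaller step (−0.80, SE 0.34, adjusted p = 0.0454), and Sparc, at 349 and 358 CPM, did not pass (−0.15, SE 0.21, adjusted p = 0.553). The Thbs1 call was lost without any of NC cortex replicates 1, 3, 4 and 5 or NC colon replicates 1, 4 and 5, with adjusted p of up to 0.142. With the filter on all 31 libraries Bmp7 (−3.29), Col1a1 (3.12) and Col4a2 (−2.15) also passed, making 8 of 9, where 58.8% of all 9128 genes passed. In that fit both type IV collagen chains and Bmp7, the epithelial growth factor, were higher in cortex, and both fibril collagens were higher in colon. The fibroblast markers without Dpt summed to 237 to 292 CPM in NC cortex and 1022 to 1870 CPM in NC colon. Of the fibroblast list with Dpt, 4 markers were tested in both tissues. In colon 3 of them, Dpt included, passed as higher and 1 as lower, where 52.5% of all genes passed. The part of fibroblast content in these differences was not tested.

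The rest of the matrix machinery was followed through 9 lists with 148 entries, of which 143 matched the table. In the cortex, 3 of 67 tested entries passed between HS and NC (4.48%, beside 11.0% of all genes), 1 higher and 2 lower. Their median log2 fold change was −0.08, beside −0.01 over all genes.

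Grem1, which encodes gremlin-1, a secreted antagonist of BMPs, measured 28.4, 16.1, 19.8, 37.5 and 18.3 CPM in NC and 42.1, 71.7, 42.1 and 58.5 CPM in HS. Every HS library was above every NC library (log2 fold change 1.26, SE 0.30, adjusted p = 0.0116). Without HS replicate 2 the adjusted p of Grem1 was 0.0614. In CAL its level was 21.2, 50.8 and 74.9 CPM (lowest, median and highest), −0.26 against HS (adjusted p = 0.686).

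Id1, a transcriptional target of BMP signalling, measured 51.0, 36.5, 34.2, 25.6 and 60.0 CPM in NC and 19.9, 27.5, 17.5 and 14.3 CPM in HS. The groups overlapped by 1 library, HS replicate 2 lying above NC replicate 4. The log2 fold change was −1.06 (SE 0.34, adjusted p = 0.0457). The call on Id1 was lost in 8 of the 15 fits that each left out 1 cortex library, with adjusted p of up to 0.157, and with a filter of 1 CPM in 4 libraries (0.0527).

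Together, the list of BMP ligands, receptors, antagonists and targets had 14 tested entries and a median log2 fold change of −0.04. Of the 14, only Grem1 (higher) and Id1 (lower) passed between HS and NC, where 11.0% of all 7524 genes passed. Neither differed between CAL and HS at the threshold, and none of the 14 passed there. The unpassed CAL entry with the smallest p was Acvr2a, an activin and BMP receptor gene (−0.78, adjusted p = 0.254).

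Plau, which encodes urokinase, a protease that activates plasminogen, measured 954, 693, 835, 844 and 931 CPM in NC and 672, 606, 582 and 549 CPM in HS. The groups did not overlap, and the log2 fold change was −0.50 (SE 0.15, adjusted p = 0.0282). Leaving out NC replicate 1 or 5 or HS replicate 2, 3 or 4 took the adjusted p of Plau over the threshold, up to 0.0843. In CAL its level was 583 ± 122 CPM (SD, n = 6), −0.05 against HS (adjusted p = 0.914). It was the only one of 8 tested proteases and inhibitors that passed between HS and NC, where 11.0% of all genes passed. The list's median was −0.05.

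**Figure D5:**
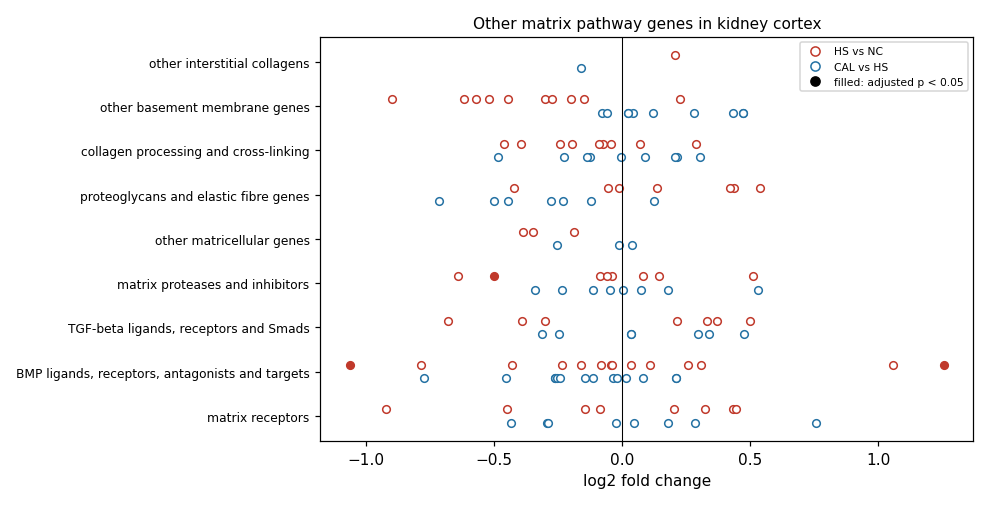
Log2 fold changes (x axis) in kidney cortex of the tested genes of 9 other matrix lists (y axis), for HS against NC and CAL against HS; each point is a gene. The 3 filled points passed, all HS against NC: Plau among proteases, and Id1 on the left and Grem1 on the right among the BMP genes.

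In the other 7 lists no entry passed between HS and NC in the cortex by edgeR. The other basement membrane genes had the lowest median of the larger lists, −0.37 over 10 tested genes. The smallest p there was that of Col18a1, the collagen whose C-terminal piece is endostatin (−0.57, SE 0.24, adjusted p = 0.127). Matrix receptors had a median of 0.06 over 8, and Ddr1, a collagen-binding receptor tyrosine kinase gene, came closest to the threshold (−0.92, SE 0.33, adjusted p = 0.0675). Ddr1 passed with no low-count filter (adjusted p = 0.00375) and when HS and NC were fitted alone (0.0375).

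Collagen processing and cross-linking genes had a median of −0.09 over 9, with the smallest p for Serpinh1, for a collagen chaperone (−0.46, adjusted p = 0.208). Proteoglycan and elastic fibre genes had a median of 0.14 over 7, led by Efemp1, an elastic fibre-associated fibulin (0.54, adjusted p = 0.196). The 7 TGF-beta ligands, receptors and Smads had a median of 0.22, led by Smad7, the inhibitory Smad (−0.68, adjusted p = 0.277). The 3 other matricellular genes had a median of −0.35, led by Ccn2, or CTGF (−0.39, adjusted p = 0.316), and the 1 other interstitial collagen tested, Col12a1, was 0.21 (adjusted p = 0.745).

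Between CAL and HS in the cortex 0 of 67 entries passed by edgeR, with a median of −0.02 beside −0.01 over all genes. The smallest p of each list belonged to Efemp1 (−0.71, adjusted p = 0.176), P4ha1 (−0.49, adjusted p = 0.286), Mep1a (−0.34, adjusted p = 0.288), Col18a1 (0.47, adjusted p = 0.317), Tgfbr2 (0.48, adjusted p = 0.381), Ccn1 (−0.25, adjusted p = 0.790), Col12a1 (−0.16, adjusted p = 0.864), Acvr2a, given above, and Cd47, a receptor for thrombospondin-1 (−0.43, SE 0.14, adjusted p = 0.135). This comparison and that of HS with NC share the HS libraries.

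In the colon 0 of 75 entries passed between HS and NC, between CAL and HS, or between CAL and NC by edgeR. The medians were 0.11 for HS against NC (0.04 over all genes) and −0.21 for CAL against HS (−0.03 over all genes). For HS against NC the smallest p values of the lists belonged to Bgn, for the small proteoglycan biglycan (1.02, SE 0.39, adjusted p = 0.492), Ccn1 (0.79, adjusted p = 0.511), Mep1b (0.99, adjusted p = 0.544), Bmp3 (−0.74, adjusted p = 0.646), P4ha1 (−0.65, adjusted p = 0.689), Lamb1 (0.60, adjusted p = 0.722), Smad7 (−0.49, adjusted p = 0.722), Col6a2 (0.43, adjusted p = 0.735) and Cd44, the hyaluronan receptor gene (0.68, adjusted p = 0.487). For CAL against HS they belonged to Mep1b (−1.15, adjusted p = 0.345), Tgm2 (−0.73, adjusted p = 0.368), Ccn1 (−0.75, adjusted p = 0.384), Bmp3 (0.84, adjusted p = 0.481), Nid1 (−0.81, adjusted p = 0.492), Cd44 (−0.42, adjusted p = 0.572), Bgn (−0.49, adjusted p = 0.679), Col6a2 (−0.36, adjusted p = 0.709) and Ltbp4 (−0.34, adjusted p = 0.760). Both Mep1b values rest on HS replicate 3, at 835 CPM beside 114 to 213 CPM in the other HS libraries: without it they were 0.08 for HS against NC and −0.25 for CAL against HS.

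Across tissues, 0 of 50 entries tested in both passed for a difference in the effect of high salt or of calcitriol by edgeR, while 30 of 50 (60%, beside 52.5% of all genes) differed between colon and cortex in NC.

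The matrix genes were also compared with one another over the libraries of a tissue, on log2(CPM + 1), in 49 pairs. In the cortex Col4a1 and Col4a2 were the 1 of 28 pairs that passed by Pearson's correlation (r = 0.848, permutation p = 0.00058, adjusted p = 0.00568, n = 15). Spearman's rho was 0.704 (permutation p = 0.00456, adjusted p = 0.0559), r was 0.674 without the 2 libraries farthest from the Col4a1 median, and r was 0.769 after each group's mean was subtracted. By Spearman's correlation the 1 cortex pair that passed was instead Col4a2 and Thbs1 (rho = 0.782, permutation p = 0.00089, adjusted p = 0.0218). That pair did not pass by Pearson's (r = 0.557, permutation p = 0.0194, adjusted p = 0.0855), and its r was lower after each group's mean was subtracted. No cortex pair passed by both correlations. The HS values of Col4a2 in these pairs rest on 18 reads in all.

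In the colon 8 of 21 pairs passed by Pearson's and 2 by both correlations. The share of all gene pairs that would pass was not computed for either tissue. Col1a1 and Sparc had r = 0.876 (permutation p = 0.0001, adjusted p = 0.00457, n = 16) and rho = 0.774 (permutation p = 0.00067, adjusted p = 0.0218), and r was 0.802 without the 2 farthest libraries. Col3a1 and Dpt had r = 0.902 (permutation p = 0.00028, adjusted p = 0.00457) and rho = 0.729 (permutation p = 0.00217, adjusted p = 0.0354), and r fell to 0.565 without the 2 farthest libraries. Col3a1 and Fn1 had r = 0.856 (permutation p = 0.00247, adjusted p = 0.0135) and rho = 0.482 (permutation p = 0.0599, adjusted p = 0.173), with r = 0.160 without them, so that relation rests on those libraries. In the other pairs that passed by Pearson's, r without the 2 libraries farthest from the first gene's median also fell. It went from 0.813 to 0.271 for Fn1 and Sparc, and from 0.867 to 0.490 for Col3a1 and Sparc. For Dpt and Fn1 it went from 0.911 to 0.513, for Col1a1 and Col3a1 from 0.809 to 0.538, and for Dpt and Sparc from 0.818 to 0.766.

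Finally, all tested genes were ranked by how closely their profile over the libraries followed that of the fibril collagens, as the mean absolute distance between scaled log2 CPM values. In the colon the nearest to the mean of Col1a1 and Col3a1 over 16 libraries were Fuca2, a lysosomal fucosidase gene (0.335), Dcn, for the fibril-binding proteoglycan decorin (0.344), and F13a1, for the clotting factor XIII A chain (0.353), where the median over all genes was 1.02. In the cortex, where Col3a1 alone could be used over 15 libraries, they were Rtn4 (0.427), Mcts1 (0.445) and Fundc2 (0.452), with a median of 1.11. Col3a1 had only 6 to 41 reads per cortex library, and the part of counting error was not tested. The colon profile includes HS replicate 3, the lowest library for both collagens, and was not ranked without it. Genes picked as nearest lie below the median by selection, so the median is no baseline for them.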

How the data were processed

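RNA was extracted with TRIzol from rat kidney cortex and colon, libraries were made with a tagmentation kit, and they were sequenced on a NextSeq 500, per the labels' protocols. The authors deposited raw counts, which were integer reads per gene without normalisation. Per the submitters' processing notes, FastQC 0.11.9, Trimmomatic 0.39, HISAT2 2.1.0, featureCounts 1.6.5 and the build Rnor_6.0 were used, and the annotation and strand setting are not given in the sources used here. If strand was not used in counting, reads of overlapping antisense genes could not be told apart.

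Counts were analysed in R 4.3.3 with edgeR 4.0.16 (TMM factors, the filterByExpr low-count filter with a minimum count of 10 and a total of 15, quasi-likelihood fits and tests), 1 model per tissue with all 3 groups, and Benjamini-Hochberg adjustment over all genes tested. A joint model of both tissues and 6 groups gave the tissue differences over the genes that passed both filters. Alternatives used DESeq2 1.42.0, voom from limma 3.58.1 and the settings in the closing section. The SE of an edgeR log2 fold change is its size divided by the square root of its F statistic, intervals are normal 95% intervals, floors are 3 counts, and pair correlations used 100000 permutations. Samples were grouped by title and treatment label; replicates are separate samples per the labels, with no statement on whether each is its own rat, so p-values measure the spread between these samples. No 2 replicates of a group held identical counts, and all 66 within-group pairs differed by more than sampling noise.

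The matrix genes, the other lists and the markers were chosen with earlier results of these data known. The rule for named genes took all 10 matrix genes and, from each other list, up to 4 genes past the threshold or otherwise the 1 with the smallest p, and the 3 genes nearest to the fibril collagen profile in each tissue. Promoter sequences are from RefSeq (GRCr8), a build other than that of the counts; no other coordinates were used.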

Additional observations from a re-analysis of the deposited data

Results flagged for a closer look

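In 54 groups of 4 to 6 libraries (9 genes in 6 groups), 3 held a library whose gap to the nearest other exceeded Dixon's critical value; chance alone gives about 1 in 20. Col1a1 was 17.7 CPM in HS cortex replicate 1 (8 reads), where the other 3 HS libraries ran from 2.39 to 3.51 CPM. Fn1 was 32.6 CPM in NC cortex replicate 1 (23 reads), where the other 4 NC libraries ran from 9.86 to 16.1 CPM. Col4a1 was 9.39 CPM in CAL colon replicate 4 (6 reads), where the other 5 CAL libraries ran from 25.7 to 34.2 CPM.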

How the results depend on the processing

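Of the comparisons, the counts of matrix genes that passed were unchanged or within 1.5 times in all but these: HS against NC in cortex, 2 genes, became 1 with robust empirical Bayes and 1 to 2 when single libraries were left out; colon against cortex in NC, 5 genes, became 8 with the filter on all 31 libraries. Col4a2 lost its call in cortex only without HS replicate 4, and the losses of Dpt, Grem1, Id1, Plau and Thbs1 are given with those genes. The following fitted log2 differences, none of which passed in the main fit, changed sign; the cause was not tested. For Sparc in cortex, HS against NC was −0.00420 with the 1 CPM filter and −0.000341 with voom, and voom gave −0.0471 for CAL against HS and −0.0474 for CAL against NC. For Dpt in colon, CAL against NC was 0.000396 with DESeq2, 0.00124 with DESeq2 size factors and 0.00338 with no filter. Voom gave −0.0358 for Fn1 HS against NC and −0.0206 for Dpt CAL against HS in colon. The HS to NC difference of Thbs1 in colon relative to cortex was 0.00825 with DESeq2 size factors, 0.0765 with voom and 0.00334 with the filter on all 31 libraries.

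With colon HS replicates 3 and 4 both left out, HS against NC was 0.36 for Dpt and −0.11 for Mep1b, CAL against HS was −0.49 for Fn1 and −0.36 for Dpt, and the HS to NC difference of colon relative to cortex was 0.0916 for Thbs1 and 0.28 for Fn1.

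The labels do not say whether replicate numbers pair the samples. Deviations of same-numbered cortex libraries correlated at −0.158 to 0.0675 (13 pairs, median −0.0116), beside a median of 0.00361 over 61 pairs of unlike number. Those of colon correlated at −0.228 to 0.245 (15 pairs, 4 over 0.1, median 0.0468). The 70 colon pairs of unlike number had a median of −0.0118, with 16 over 0.1. Such correlations cannot exclude that the numbers mark matched samples. With the replicate block, Sparc in cortex was −0.0253 for HS against NC, −0.0738 for CAL against HS and −0.0991 for CAL against NC, and in colon Col3a1 was −0.0615 and Fn1 −0.0787 for HS against NC and Dpt 0.0229 for CAL against NC. The block still passed 2 of 8 matrix genes for HS against NC in cortex and 4 of 6 for colon against cortex, where Thbs1 did not pass (adjusted p = 0.0626, and 0.0533 with no filter and no block). In cortex HS against NC, Id1 did not pass with the block (adjusted p = 0.0947) and Ddr1 (0.00922), Ccn2 (0.0453) and Col18a1 (0.0478) did.

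Leaving out 1 library at a time gave ranges that crossed 0. In cortex they were −0.0768 to 0.0984 for Sparc HS against NC, −0.0925 to 0.136 for Sparc CAL against HS, −0.0814 to 0.132 for Sparc CAL against NC, and for CAL against HS −0.37 to 0.0058 for Col3a1, −0.33 to 0.0407 for Col12a1 and −0.0486 to 0.29 for Thbs1. In colon HS against NC they were −0.38 to 0.33 for Fn1, −0.35 to 0.14 for Dpt, −0.22 to 0.13 for Col4a1, −0.22 to 0.32 for Col3a1 and −0.0501 to 0.27 for Sparc. In colon CAL against HS they were −0.26 to 0.45 for Fn1, −0.15 to 0.34 for Dpt and −0.37 to 0.14 for Thbs1, and in colon CAL against NC −0.0748 to 0.19 for Fn1 and −0.10 to 0.12 for Dpt. For colon relative to cortex they were −0.20 to 0.42 for Thbs1, −0.0429 to 0.28 for Sparc and −0.65 to 0.0350 for Fn1 (HS against NC), and −0.45 to 0.0771 for Col3a1 (CAL against HS). Reads per library were few for some of these genes (Thbs1 in colon, 5 to 36 in NC and HS) and more for others (Sparc in cortex, 119 to 905), and the part of depth was not tested.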

Other observations

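The share of Col4a2 in the summed reads of the 2 type IV collagen genes needs no scaling between libraries, and was computed after their values had been seen. In NC cortex it was 24.2%, 22.2%, 27.7%, 25.4% and 21.6% of the reads of Col4a1 and Col4a2 together, and in HS cortex 12.2%, 19.6%, 0% and 8.51%, the last 4 from 41, 46, 8 and 47 reads. In CAL cortex it was 17.3% ± 4.31 (SD, n = 6). All 4 HS libraries were below all 5 NC libraries. The difference of −14.1 percentage points between HS and NC had a two-sided exact permutation p of 0.0159, the smallest that 4 against 5 allows (0.0476 adjusted over 6 comparisons). With those 2 groups fully apart, the test could return no other value. CAL minus NC was −6.89 points (exact permutation p = 0.013, adjusted p = 0.0476), and CAL minus HS was 7.26 points (exact permutation p = 0.133). The shares use the same Col4a2 reads as the fits above, so their p-values are not separate support for those differences. Without HS replicate 3, which had 8 reads in all, the HS mean was 13.4% and the exact permutation p against NC was 0.0357. In colon the group means were 17.9% in NC, 22.2% in HS and 16.7% in CAL, and the exact permutation p of the 3 comparisons ran from 0.39 to 0.861. Single shares have wide 95% Wilson intervals, for example 5.32% to 25.5% for HS cortex replicate 1, which cover counting error only.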
